A study of Mus musculus with 18 samples.

Results

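Mitosis and chromosome segregation genes encode the motors, kinases, cyclins, kinetochore parts, checkpoint proteins, condensins and cytokinesis factors that a dividing cell uses to share out its chromosomes. A list of 50 such mouse genes was picked by name for these roles, with earlier results of these data known. Of these, 49 were measured in fetal lung, among 18193 genes in all. Each was read through its brightest probe set (the highest mean log2 signal over 18 arrays). Cyclin B1, Ccnb1, had no probe set carrying its symbol alone and is not analysed here. From GD17 to GD18 the lungs lost signal of almost all of these genes in each group, and at GD18 the male lungs held more of it than female or flutamide-treated male lungs. Mki67, the proliferation marker, was 2.21-fold higher in males than in females at GD18 and 2.88-fold higher than in flutamide-treated males. It had the largest difference of the 49 genes in both comparisons, where the median log2 differences were 0.28 and 0.31.

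The lungs came from BALB/c fetuses at gestational day (GD) 17 or 18. Dams were injected under the skin daily from GD10 until the day before harvest, either with 1 mg flutamide, a drug that blocks the androgen receptor, or with its vehicle. Males and females of vehicle-injected dams make the groups 17 m, 17 f, 18 m and 18 f, and males of flutamide-injected dams make 17 flut and 18 flut, so that all groups share the strain and the injections. Sex was read from the genital tract and from PCR of the Y-linked gene Sry. Each group has 3 arrays, and each array was hybridised with lung RNA pooled from 3 fetuses of 1 sex and of distinct litters; whether pools of different groups shared litters is not given in the sources used here. A value is a log2 signal, and a difference is the group named first minus the group named after it. A gene is called where limma gave a Benjamini-Hochberg adjusted p below 0.05 over all probe sets.

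In dividing cells these genes are switched on late in the cycle, between DNA replication and mitosis, and their mRNAs and proteins are removed as the daughter cells leave mitosis. A tissue's level of such mRNAs therefore follows, as background knowledge, the share of its cells that are in late cycle phases. The fetal mouse lung leaves a phase of rapid growth around these days as its epithelium starts to make surfactant. In RNA from a whole lung, fewer dividing cells and less mRNA per dividing cell cannot be told apart.

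Late cell cycle genes are also known for a short promoter element close to the transcription start, the cell cycle genes homology region, often set downstream of CCAAT boxes, the binding sites of NF-Y. RefSeq windows of 300 bases, from 250 before to 50 after a start, were at hand for 42 of the 49 genes. The usual letters of the homology region, TTTGAA, were searched on both strands together with the variant TTCGAA, as was CCAAT. At least 1 of the homology region words stood in the windows of 34 genes (81.0%), against 17.5% of the 14452 array genes with a window and 19.2% of all 32851 windows. Within 50 bases of the start such a word stood in 31 of the 42 (73.8%) against 4.62% of array genes. CCAAT was found in 28 (66.7%) against 42.0%, and both kinds of letters in 27 (64.3%) against 7.05%. Of 119 matches in the windows of these genes, 1 neighbouring pair overlapped. Bub3, Cep55, Ect2 and Prc1 had overlapping windows, so some sites are counted more than once among these matches. A match describes the letters of the window and is not a tested binding site. Of the genes with a window, the 6 with the most calls where males were compared to females or to the flutamide groups (ties by the lowest p) are printed here (build GRCm38.p6, 5′ to 3′ on the strand of the gene), with every match of the 3 words or their reverse complements in capitals. They lie at chr2:119046869-119047168 (+, Knl1), chr7:135716330-135716629 (-, Mki67), chr3:135212313-135212612 (+, Cenpe), chr19:34922108-34922407 (+, Kif20b), chr1:189688037-189688336 (-, Cenpf) and chr11:40733388-40733687 (-, Hmmr).
Knl1: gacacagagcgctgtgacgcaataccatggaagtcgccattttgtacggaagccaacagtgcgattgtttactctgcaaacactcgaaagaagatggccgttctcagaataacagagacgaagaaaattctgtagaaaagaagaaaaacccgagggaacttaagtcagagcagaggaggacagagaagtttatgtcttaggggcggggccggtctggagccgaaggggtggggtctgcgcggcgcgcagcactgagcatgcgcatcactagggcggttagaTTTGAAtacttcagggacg
Mki67: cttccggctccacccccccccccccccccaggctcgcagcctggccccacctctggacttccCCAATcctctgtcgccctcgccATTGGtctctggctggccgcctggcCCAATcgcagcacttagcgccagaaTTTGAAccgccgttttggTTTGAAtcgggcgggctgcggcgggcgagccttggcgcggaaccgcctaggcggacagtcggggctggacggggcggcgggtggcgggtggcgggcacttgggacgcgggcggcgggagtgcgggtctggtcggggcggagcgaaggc
Cenpe: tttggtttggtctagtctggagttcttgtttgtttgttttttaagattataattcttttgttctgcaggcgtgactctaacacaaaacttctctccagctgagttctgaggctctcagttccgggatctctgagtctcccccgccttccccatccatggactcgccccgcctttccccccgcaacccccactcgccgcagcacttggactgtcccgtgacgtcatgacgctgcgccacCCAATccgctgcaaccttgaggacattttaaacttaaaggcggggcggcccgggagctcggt
Kif20b: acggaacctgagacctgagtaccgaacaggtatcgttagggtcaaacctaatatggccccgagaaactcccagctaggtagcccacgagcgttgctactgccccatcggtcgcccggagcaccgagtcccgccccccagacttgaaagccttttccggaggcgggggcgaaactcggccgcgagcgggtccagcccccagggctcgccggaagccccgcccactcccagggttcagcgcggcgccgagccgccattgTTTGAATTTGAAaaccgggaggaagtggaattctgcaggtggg
Cenpf: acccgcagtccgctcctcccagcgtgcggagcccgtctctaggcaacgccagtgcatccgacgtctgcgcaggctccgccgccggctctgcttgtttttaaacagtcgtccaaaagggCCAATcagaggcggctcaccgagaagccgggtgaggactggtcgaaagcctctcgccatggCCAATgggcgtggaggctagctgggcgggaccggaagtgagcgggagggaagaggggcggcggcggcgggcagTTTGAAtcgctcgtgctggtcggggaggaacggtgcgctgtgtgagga
Hmmr: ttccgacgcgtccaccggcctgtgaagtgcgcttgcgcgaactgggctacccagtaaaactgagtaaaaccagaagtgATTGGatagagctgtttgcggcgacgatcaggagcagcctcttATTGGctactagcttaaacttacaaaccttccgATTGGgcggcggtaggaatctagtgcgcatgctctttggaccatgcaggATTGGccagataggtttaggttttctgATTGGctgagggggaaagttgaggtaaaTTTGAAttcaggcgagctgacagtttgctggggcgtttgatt
Knl1 has TTTGAA starting at base 32 after the start, Kif20b has it in tandem at bases 8 and 14, and Cenpf and Hmmr have it at bases 3 and 9. Mki67 has its pair farther upstream, at -116 and -98, with 3 CCAAT matches before them. Cenpe has only a CCAAT, at -12, so the letters are not shared by all of the genes that differed most.

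Several pools stood apart in tissues other than lung. In 17 f 2, 17 f 3 and 17 m 3, scores of 10 exocrine pancreas genes, given as the mean log2 deviation from each gene's mean over 18 pools, were 3.68, 3.58 and 3.04, against -0.90 to -0.35 in the other pools, and 17 f 2 and 17 f 3 were also the most alike of all pairs of arrays (r = 0.9977 over probe sets). In 18 m 3 the score of 11 liver genes was 3.18, against -0.44 and 0.03 in the other 18 m pools, that of 6 heart genes was 1.32 against 0.10 and 0.17, Gapdh and Actb had lower 5′ minus 3′ signals than in any other pool (-0.39 and -0.80), and the spiked bacterial RNAs had a 5′ minus 3′ signal of -2.40 against -0.76 and -0.67. The pool labelled 18 flut 3 had an Xist signal of 11.95, in the range of the female pools (11.33 to 12.51) and above the other flutamide-treated pools (7.83 to 8.15). Lung epithelial markers (9 genes) were present in every pool, with a mean log2 signal of 8.66 to 9.80 at GD17 and 10.99 to 11.33 at GD18.

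The level of the whole gene group in a pool was summarised as its score, the mean over 49 genes of the log2 signal minus that gene's mean over the 18 pools. The 17 m pools scored 0.50, 0.47 and 0.43, the 17 f pools 0.46, 0.39 and 0.41, and the 17 flut pools 0.25, 0.26 and 0.33. At GD18 the scores were -0.04, -0.02 and -0.30 in 18 m, -0.61, -0.33 and -0.50 in 18 f, and -0.62, -0.44 and -0.64 in 18 flut. All GD17 pools thus lay above all GD18 pools, the 17 flut pools lay below both untreated GD17 groups, and 17 m and 17 f overlapped. At GD18 the 18 m pools lay above the others, with 18 m 3 next to 18 f 2, while 18 f and 18 flut overlapped. The pool 18 m 3 was the lowest of its group for 42 of 49 genes, and 18 f 2 was the highest of its group for 42. The pools 18 m 1 and 18 m 2, whose scores were close, had thymus scores (7 genes) of 1.84 and -0.69.

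**Figure D1:**
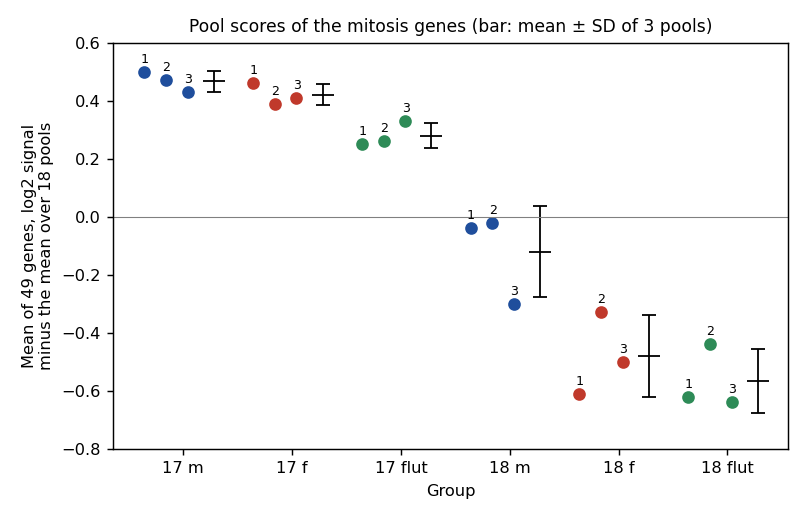
Score of the mitosis genes in each of 18 pools (vertical axis, mean over 49 genes of log2 signal minus the gene's mean over 18 pools) by group (horizontal axis), with replicate numbers beside the points and bars for the mean ± SD of 3 pools. The GD17 pools lie between 0.25 and 0.50 and the GD18 pools between -0.64 and -0.02, with 18 m 3 at -0.30 next to 18 f 2 at -0.33.

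Correlated with that score over the 18 pools, single genes gave a median Pearson r of 0.97. The exception was Kif15, a kinesin that helps to hold the spindle poles apart, with r = 0.06 and a dim probe set (mean log2 6.10). Each gene is itself part of the score, and all GD17 pools scored above all GD18 pools, so a high r was partly built in. The 42 genes whose 3 GD17 group means all lay above the 3 GD18 group means compare with 22.4% of all genes of which this was true. By group means, 18 m was the highest of GD18 for 48 of 49 genes (40.4% of all genes), with Kif15 as the exception, and 17 flut was the lowest of GD17 for 40 (32.1%). At GD18 the order 18 m, 18 f, 18 flut held for 29 genes and 18 m, 18 flut, 18 f for 19, against 20.2% and 20.3% of all genes. At GD17 the order 17 m, 17 f, 17 flut held for 23 and 17 f, 17 m, 17 flut for 17, against 8.76% and 23.3%.

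**Figure D2:**
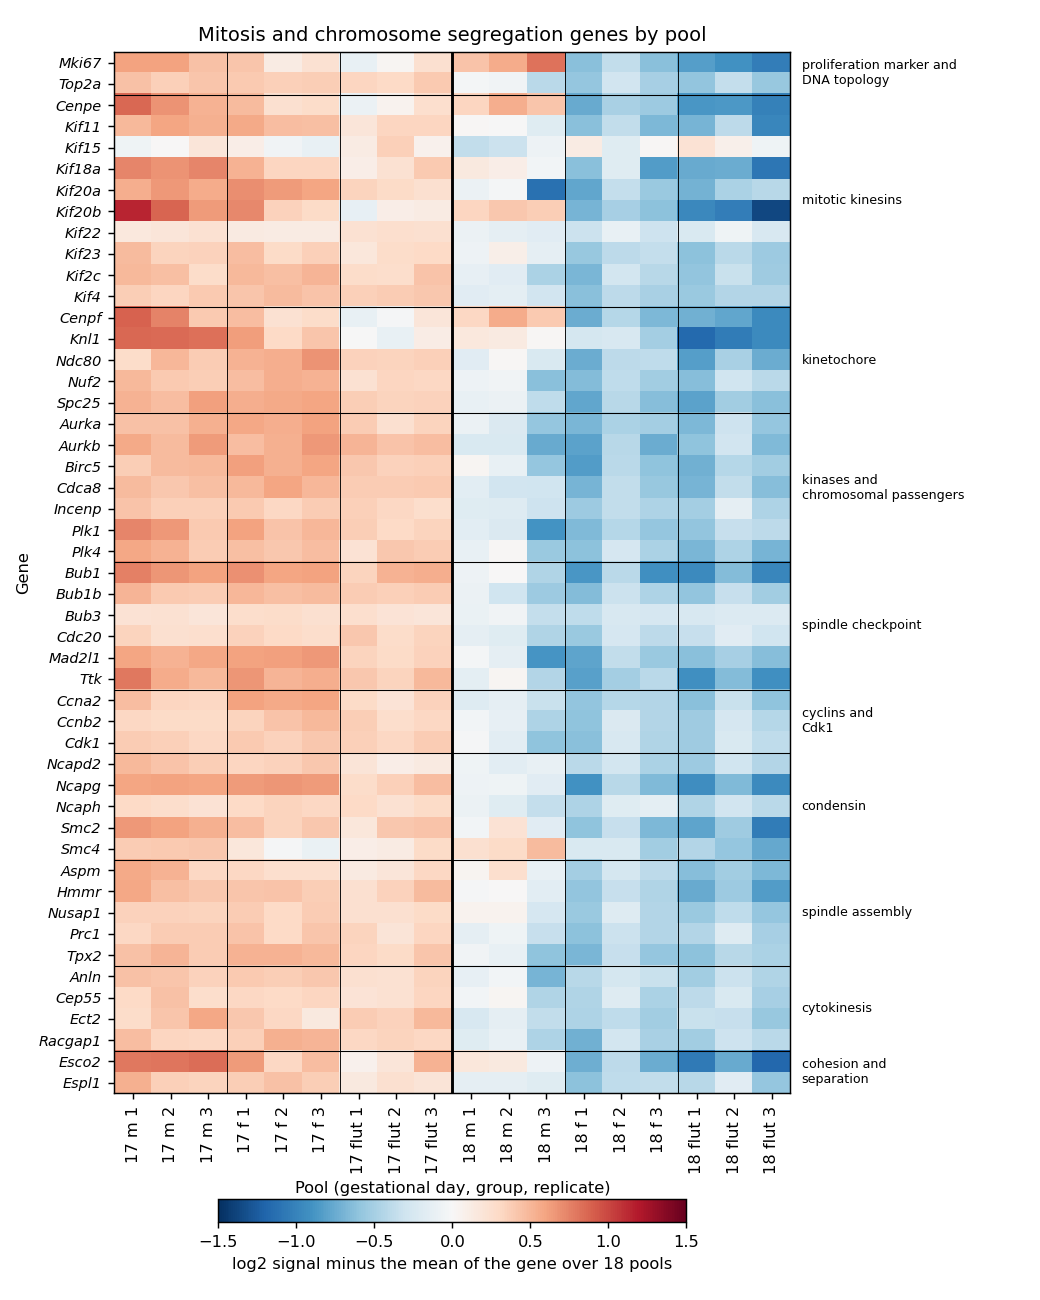
Each of 49 genes (rows, grouped by role) in each of 18 pools (columns), coloured by log2 signal minus the mean of the gene over 18 pools. Almost all rows are red at GD17 and blue in 18 f and 18 flut, Kif15 is not, and Mki67, Cenpe, Kif20b, Cenpf and Smc4 stay red in the 18 m pools.

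The comparison 18 m vs. 18 f asks for sexual dimorphism at the later day. Of the 49 genes, 17 were called higher in males and none lower, against 1.43% of all genes called higher and 0.242% lower, and 34 had an unadjusted p below 0.05. The median difference was 0.28 over these genes and 0.02 over all genes. In 23 genes every male pool lay above every female pool, against 11.5% of all genes. Against 18 flut, which asks for the effect of flutamide on males, 23 genes were called higher in 18 m and none lower (3.67% of all genes called higher and 0.555% lower), with a median of 0.31 over these genes and -0.0027 over all. In 23 genes every 18 m pool lay above every 18 flut pool (11.5% of all genes), and for Kif15 every 18 m pool lay below (9.29%). Both comparisons use the same 3 male pools, so they are not independent of each other. The count against 18 f rested on single pools. It was 35 without 18 m 3, 7 without 18 m 1, 6 without 18 m 2 and 5 without either 18 f 1 or 18 f 3. Against 18 flut the count was 34 without 18 m 3 and 18 without 18 flut 3. Liver genes moved with the comparison to females. All 11 were higher in 18 m than in 18 f (median 2.41), and the liver scores of the 18 m pools (0.03, -0.44 and 3.18) lay above those of the 18 f pools (-2.13, -1.07 and -0.71), with no gene called. Against 18 flut 10 of 11 were higher (median 0.25) and the scores overlapped (0.33, 1.98 and -0.26 in 18 flut). All 7 thymus genes were higher in 18 m in both comparisons (medians 0.14 and 0.36), and 8 of 9 lung epithelial markers were lower (medians -0.17 and -0.19). No gene of the liver, thymus, lung epithelial, heart, erythroid or exocrine pancreas lists was called in either comparison, and the part of these tissues in the mitosis genes was not tested. With both 18 m 3 and 18 flut 3 left out, 33 and 29 genes were called, and in fits of only the 2 groups compared 2 and 9 were called.

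**Figure D3:**
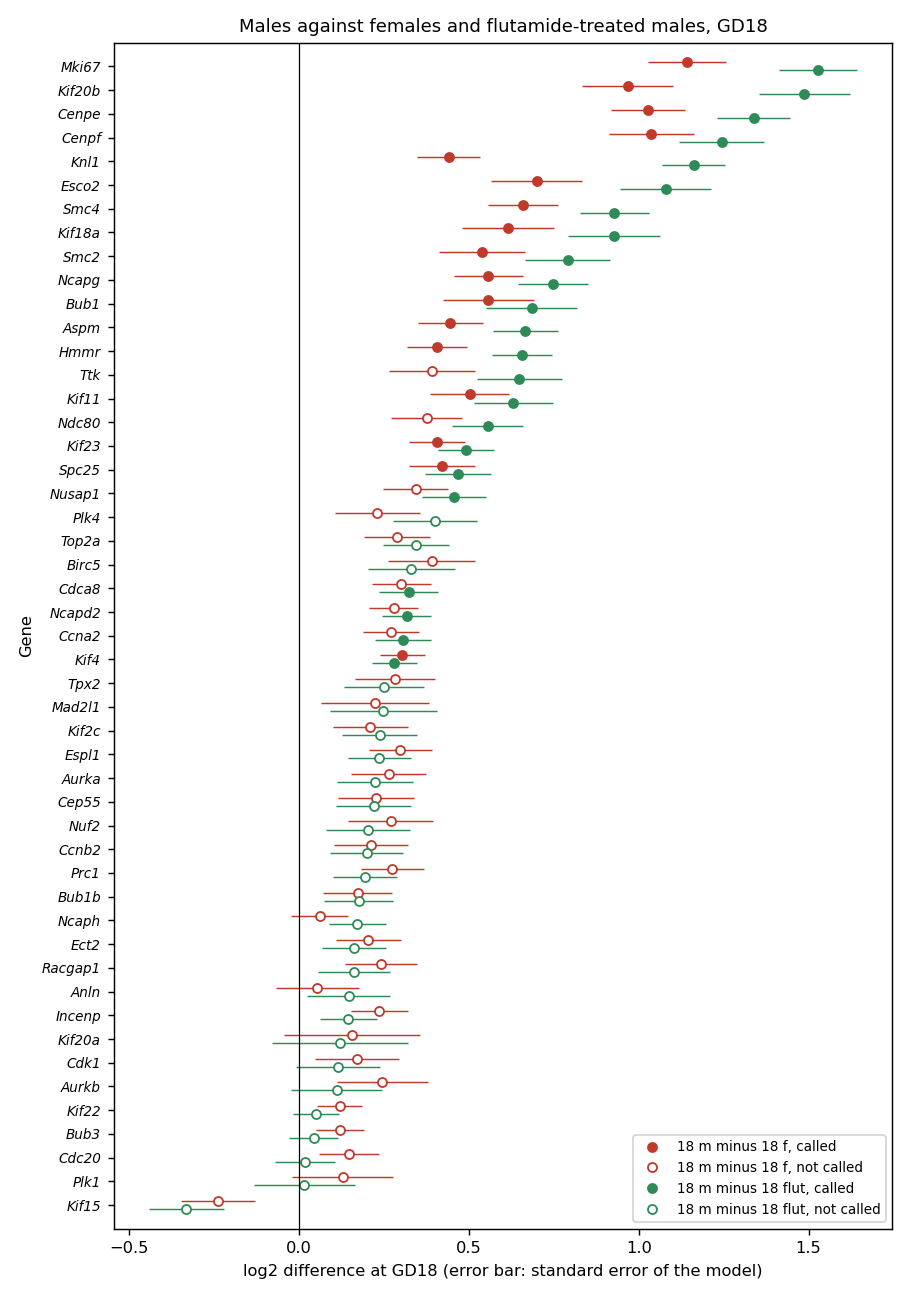
Log2 difference of each of 49 genes at GD18 (horizontal axis) for 18 m minus 18 f (red) and 18 m minus 18 flut (green), with standard errors of the limma model and filled points for called genes. Mki67, Kif20b, Cenpe and Cenpf stand at the top with differences of 0.97 to 1.53, and Kif15 alone lies below 0 in both.

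Mki67, which coats mitotic chromosomes, gave 10.90, 11.03 and 11.29 in the 18 m pools, 9.84, 10.10 and 9.85 in the 18 f pools and 9.65, 9.56 and 9.43 in the 18 flut pools. The male pools stood clear of both other groups, and 18 m 3, the pool high in liver genes, was the highest of them. The differences were 1.14 (SE 0.12, adjusted p = 0.00011) against 18 f and 1.53 (SE 0.12, adjusted p = 5.2e-06) against 18 flut. Top2a, the topoisomerase that untangles sister DNA, differed by 0.29 and 0.34 and was not called (adjusted p = 0.16 and 0.063).

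Among the 10 mitotic kinesins, 6 were called higher in 18 m in each comparison, namely Cenpe, Kif11, Kif18a, Kif20b, Kif23 and Kif4. Cenpe carries chromosomes to the metaphase plate. It gave 7.98, 8.20 and 8.08 in 18 m, 6.90, 7.17 and 7.11 in 18 f, and 6.79, 6.80 and 6.65 in 18 flut. The lowest male pool was above the highest of the other 6, and the differences were 1.03 (SE 0.11, adjusted p = 0.00015) and 1.34 (SE 0.11, adjusted p = 6e-06). Kif20b, a kinesin of late mitosis and cytokinesis, gave 6.52, 6.61 and 6.57 in 18 m, 5.50, 5.71 and 5.59 in 18 f, and 5.24, 5.16 and 4.84 in 18 flut. The 3 groups did not overlap, and the differences were 0.97 (adjusted p = 0.0024) and 1.49 (adjusted p = 1.3e-05). Kif18a, which dampens chromosome oscillations, differed by 0.62 and 0.93, and Kif11, the motor that drives the spindle poles apart, by 0.50 and 0.63. Kif23 and Kif4, motors of the central spindle, differed by 0.28 to 0.49. The remaining kinesins were not called. Kif20a, Kif22 and Kif2c differed by 0.05 to 0.24, and Kif15 by -0.24 against 18 f and -0.33 against 18 flut.

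Of 5 kinetochore genes, 3 were called higher in 18 m than in 18 f (Cenpf, Knl1, Spc25) and 4 higher than in 18 flut (Ndc80 in addition). Knl1, the scaffold that recruits checkpoint proteins to the kinetochore, gave 7.69, 7.66 and 7.54 in 18 m, 7.26, 7.29 and 7.02 in 18 f, and 6.36, 6.48 and 6.57 in 18 flut. The 3 groups were separate and 18 flut was the lowest. Its differences were 0.44 (SE 0.09, adjusted p = 0.025) against 18 f and 1.16 (SE 0.09, adjusted p = 6e-06) against 18 flut. Over the brightest probe sets, Knl1 was also the only gene of the group called between 18 flut and 18 f. Its difference was -0.72 (adjusted p = 0.0022). Of the 68 other probe sets, 4 were called lower in 18 flut and 0 higher. They belong to Kif20b (-0.89), Knl1 (-0.76), Smc2 (-0.68) and Smc4 (-0.59). In that comparison 0.143% of all genes were called lower and 0.022% higher, and the median was -0.04 over the 49 genes and 0.02 over all. Cenpf, a large fibrous protein of the outer kinetochore, differed by 1.04 (adjusted p = 0.00064) and 1.24 (adjusted p = 3e-05). Ndc80 and Spc25 belong to the complex that holds microtubules, as does Nuf2. Spc25 differed by 0.42 and 0.47, Ndc80 by 0.38 (not called) and 0.56, and Nuf2 by 0.27 and 0.20, neither called.

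Condensin, the ring that compacts chromosomes, has 5 subunits in the group. Smc2, Smc4 and Ncapg were called higher in 18 m in both comparisons and Ncapd2 against 18 flut alone, while Ncaph differed by 0.06 and 0.17 and was not called. The ATPase subunit Smc4 gave 12.56, 12.60 and 12.79 in 18 m, 12.09, 12.09 and 11.79 in 18 f, and 11.88, 11.74 and 11.55 in 18 flut. The 18 m pools were above all others while 18 f 3 lay below 18 flut 1, and the differences were 0.66 (adjusted p = 0.0043) and 0.93 (adjusted p = 7.5e-05). Smc2, its partner, differed by 0.54 and 0.79, and Ncapg by 0.56 and 0.75. Of the pair of genes that set and cut sister cohesion, Esco2, an acetyltransferase of cohesin, gave 7.60, 7.58 and 7.36 in 18 m, 6.70, 7.04 and 6.69 in 18 f and 6.37, 6.68 and 6.25 in 18 flut, the male pools again above all others. Its differences were 0.70 (adjusted p = 0.016) and 1.08 (adjusted p = 0.0002). The separase gene Espl1 differed by 0.30 and 0.24 and was not called.

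Of 5 spindle assembly genes, Aspm, which focuses spindle poles, and Hmmr, a spindle-binding protein, were called in both comparisons, with differences of 0.45 and 0.67 for Aspm and 0.41 and 0.66 for Hmmr. Nusap1, which bundles spindle microtubules, was called against 18 flut (0.46, adjusted p = 0.012). Prc1 and Tpx2, also microtubule-binding, differed by 0.19 to 0.28 and were not called. Of 6 checkpoint genes, the kinase gene Bub1 was called in both (0.56 and 0.69) and the kinase gene Ttk against 18 flut (0.65, adjusted p = 0.0072) but not against 18 f (0.39). Bub1b, Bub3, Cdc20 and Mad2l1 differed by 0.02 to 0.25, with no call.

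Of the 7 kinases and members of the chromosomal passenger complex, which corrects wrong attachments, none was called against 18 f, and the medians were 0.24 against 18 f and 0.22 against 18 flut. Of them Cdca8, a passenger subunit, was called against 18 flut (0.32, adjusted p = 0.046). The mitotic kinase Plk1 gave 8.77, 8.71 and 8.03 in 18 m, 8.27, 8.50 and 8.35 in 18 f, and 8.34, 8.58 and 8.54 in 18 flut. The pools 18 m 1 and 18 m 2 were above all others and 18 m 3 was below all others, and the differences were 0.13 (SE 0.15, adjusted p = 0.78) and 0.02 (SE 0.15, adjusted p = 0.97). Aurka and Aurkb, the Aurora kinases, differed by 0.11 to 0.26, the passenger genes Birc5 (survivin) and Incenp by 0.15 to 0.39, and Plk4, the kinase of centriole duplication, by 0.23 and 0.40, with no call. The activator of the anaphase-promoting complex, Cdc20, gave 11.71, 11.66 and 11.39 in 18 m, and overlapped 18 f (11.28 to 11.59) and 18 flut (11.50 to 11.67). Of the cyclins and their kinase, Ccna2 was called against 18 flut (0.31, adjusted p = 0.048) but not against 18 f (0.27). Another Ccna2 probe set (mean log2 10.51 against 10.53) differed by 0.17 against 18 f and 0.14 against 18 flut, with no call. Ccnb2 and Cdk1 differed by 0.12 to 0.21. None of the 4 cytokinesis genes Anln, Cep55, Ect2 and Racgap1 was called, with differences of 0.05 to 0.24.

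**Figure D4:**
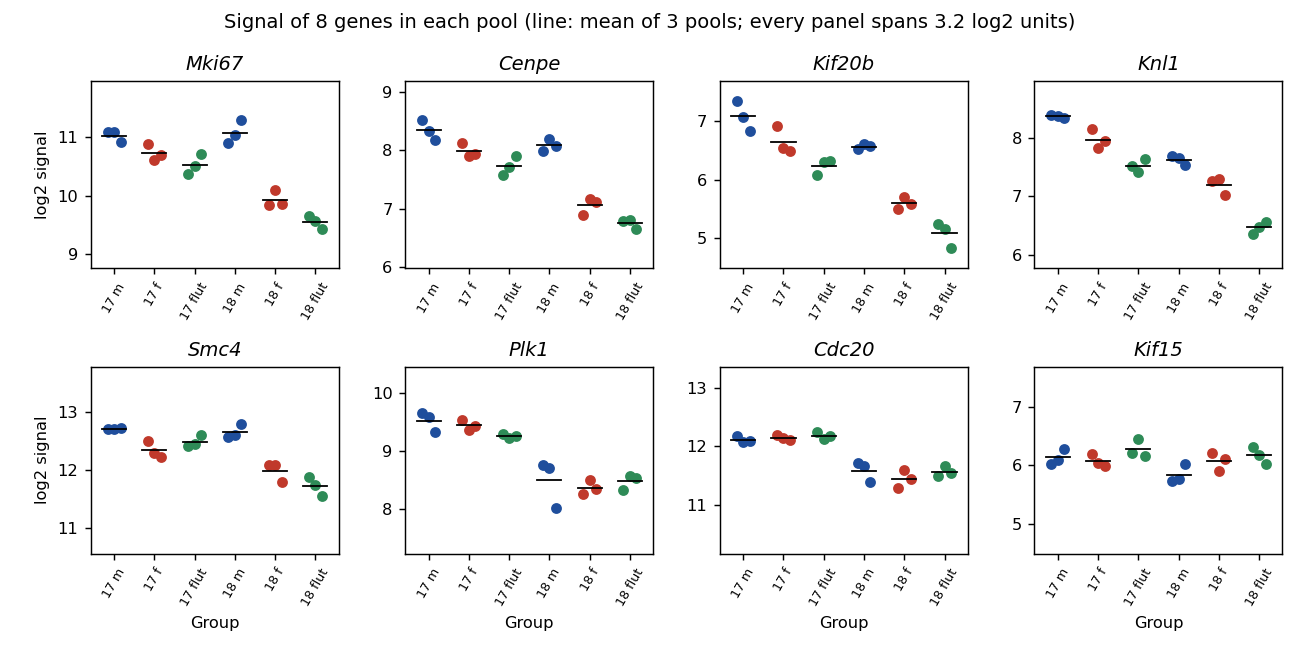
Log2 signal (vertical axis, every panel spanning 3.2 units) of 8 genes in the 3 pools of each group, with lines for group means. Mki67, Cenpe, Kif20b, Knl1 and Smc4 show the 18 m pools above 18 f and 18 flut, Plk1 and Cdc20 show overlapping GD18 groups, and Kif15 shows overlapping days in females and in flutamide-treated males and lower 18 m than 17 m pools, a difference that was not called.

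Within the group, differences were set beside gene length and level. Over the 49 genes, the difference 18 m minus 18 flut had a Pearson r of 0.37 and a Spearman rho of 0.40 with log2 genomic length and -0.36 and -0.35 with mean log2 signal. The 24 genes longer than the median of 29.9 kb had a median difference of 0.59 and the other 25 of 0.24. Over 18145 genes of the array with a length, r with length was 0.06. For 18 m minus 18 f, r and rho were 0.28 and 0.35 with length, with medians of 0.38 over the longer and 0.24 over the other genes, and -0.28 and -0.39 with level. For 17 m minus 17 flut they were 0.28 and 0.19 with length, with medians of 0.13 and 0.09, and -0.53 and -0.51 with level. The genes of a comparison share the same 6 pools and are not independent of each other. Probe sets that were not the brightest of their gene gave 68 more measurements of 36 of the genes, at a lower median level (7.22 against 9.41). Of these, 13 were called higher in 18 m than in 18 f (1.1% of all probe sets) and 22 higher than in 18 flut (3.21%), with none lower. Another Cenpe probe set differed by 1.29 and 1.93, and another of Knl1 by 0.63 and 1.39. Of 3 more Kif20b probe sets, 1 differed by 1.16 and 2.05, while the dimmest pair (mean log2 3.19 and 3.28) differed by 0.09 and 0.06 and by 0.21 and 0.33. Of 2 more Cenpf probe sets, 1 differed by 0.94 and 1.33 and the other by 0.23 and 0.19. The other Kif11 probe sets (mean log2 8.50 and 7.74) differed by 0.21 and 0.27 and by 0.36 and 0.48, and were not called.

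At GD17 the males and females were close. In 17 m vs. 17 f, 2 of 49 genes were called higher in males, Knl1 and Smc4, and none lower (0.929% of all genes called higher and 0.742% lower), and the median difference was 0.02 over these genes and -0.05 over all genes. Every male pool lay above every female pool in 8 genes and below in 11, against 5.71% and 15.0% of all genes. Knl1 gave 8.39, 8.38 and 8.35 in 17 m and 8.15, 7.83 and 7.94 in 17 f, and Smc4 gave 12.70, 12.71 and 12.72 in 17 m and 12.49, 12.30 and 12.22 in 17 f. The male pools of both genes were tightly grouped and above all female pools, with differences of 0.40 (SE 0.09, adjusted p = 0.02) and 0.38 (SE 0.10, adjusted p = 0.049). The 2 calls were lost (0 called) without any 1 of 17 f 2, 17 f 3, 17 m 1 or 17 m 2, and also without the 3 pools high in pancreas genes, while 4 genes were called without 17 m 3. Mki67, Cenpe and Kif20b differed by 0.29, 0.36 and 0.43 and were not called (adjusted p = 0.20, 0.08 and 0.092). Other probe sets of Knl1 (0.26) and Smc4 (0.38 and 0.30) were not called (adjusted p = 0.36, 0.059 and 0.22). Of the 68 probe sets that were not the brightest of their gene, 3 were called higher in 17 m and 0 lower. They belong to Cenpf (0.36), Ttk (0.47) and Aspm (0.44). All 10 exocrine pancreas genes (median -1.68, 1 called) and all 11 liver genes (median -1.58, none called) were lower in 17 m than in 17 f, and their part in these values was not tested.

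Flutamide-treated males were already lower at GD17. In 17 m vs. 17 flut, 7 genes were called higher in 17 m (Mki67, Cenpe, Kif20b, Cenpf, Knl1, Ncapd2 and Esco2) and none lower, against 1.0% of all genes called higher and 1.69% lower, with a median difference of 0.13 over the group and -0.04 over all genes. In 26 genes all 17 m pools lay above all 17 flut pools, against 10.2% of all genes. Knl1 gave 7.52, 7.42 and 7.64 in 17 flut, below every pool of 17 m and 17 f, and its difference from 17 m was 0.85 (SE 0.09, adjusted p = 0.00039). Kif20b gave 7.34, 7.07 and 6.84 in 17 m and 6.08, 6.30 and 6.32 in 17 flut, groups that were well apart, with a difference of 0.85 (SE 0.13, adjusted p = 0.0041). Cenpe gave 8.52, 8.33 and 8.18 against 7.57, 7.71 and 7.91, a difference of 0.61 (adjusted p = 0.0078). Mki67 gave 11.08, 11.08 and 10.91 against 10.36, 10.50 and 10.71, with a difference of 0.50 (adjusted p = 0.028), and its call was lost without 17 m 1, 17 m 2, 17 flut 1 or 17 flut 2 (adjusted p 0.079 to 0.12). The count of 7 fell to 3 without 17 m 1 or without 17 flut 1 and to 4 without 17 m 2 or without 17 flut 2, and it was 5 without the 3 pools high in pancreas genes. In this comparison 3 of 9 lung epithelial markers were called lower in 17 m, Scgb1a1, Hopx and Ager, and the epithelial score was -1.30, -0.71 and -1.54 in 17 m and -0.40, -0.62 and -0.58 in 17 flut. Of 5 fibroblast genes, 2 were called higher in 17 m, Col1a1 (0.52) and Col1a2 (0.32). All 10 exocrine pancreas genes (median 1.27) and all 11 liver genes (median 0.55) were higher in 17 m, with none called. The part of these tissues in the mitosis genes was not tested. All 7 genes were also called higher in 18 m than in 18 flut, in separate pools, against 0.533% of all genes called at both days.

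Against 17 f, 2 genes were called lower in 17 flut, Knl1 (-0.45, adjusted p = 0.019) and Ccna2 (-0.31, adjusted p = 0.046), and none higher. Of all genes 2.41% were called lower and 2.15% higher, and the median over the group was -0.15 against -0.0021 over all genes. Of the 68 probe sets that were not the brightest of their gene, 7 were called lower and 0 higher. They belong to Cenpe, Kif20b, Knl1, Ncapg and Smc2. Ccna2, the S-phase and mitotic cyclin A2, gave 10.82, 10.73 and 10.87 in 17 flut and 11.13, 11.10 and 11.12 in 17 f, with 10.99, 10.85 and 10.84 in 17 m. The 17 flut pools of this gene lay below all 17 f pools. Another Ccna2 probe set of similar level differed by -0.28 and was not called (adjusted p = 0.25). Leaving out 1 pool at a time left 1 gene called at most, and 0 without 17 flut 1, 17 flut 2 or 17 f 3 or without the 3 pools high in pancreas genes. In this comparison 4 of 9 lung epithelial markers were called higher in 17 flut, and 1 each of the exocrine pancreas (median -3.02) and erythroid (median -0.49) genes lower, with all 11 liver genes lower (median -2.23) and none called. Their part in it was not tested.

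From GD17 to GD18, 44 of 49 genes were called lower in males, where 12.4% of all genes were called lower, 48 in females (22.5%) and 48 in flutamide-treated males (13.8%), and none was called higher (17.7%, 17.2% and 13.0% of all genes). The median changes were -0.59, -0.93 and -0.84, against 0.03, -0.01 and -0.01 over all genes. In each of the 3 comparisons the count stayed between 43 and 48 when any 1 pool was left out. The lung epithelial score rose over the same interval, from -1.54 to -0.40 at GD17 to 0.79 to 1.13 at GD18, with 7 or 8 of 9 markers called higher in each group. Markers of other tissues fell in females, where 9 of 10 exocrine pancreas genes (median -3.07), 5 of 7 erythroid genes (median -0.99) and 3 of 11 liver genes (median -2.42) were called lower. In males none of these was called lower, with medians of -1.41, 0.17 and 1.27, nor in flutamide-treated males, with medians of -0.03, 0.07 and 1.64. Of 5 fibroblast genes, 2 were called higher in males, 5 in females and 4 in flutamide-treated males. Without the 3 pools high in pancreas genes, 45, 48 and 48 mitosis genes were called lower in the same order, with 17 f then at 1 pool that was taken to vary like the other groups. The part of the other markers in the fall of the mitosis genes was not tested.

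**Figure D5:**
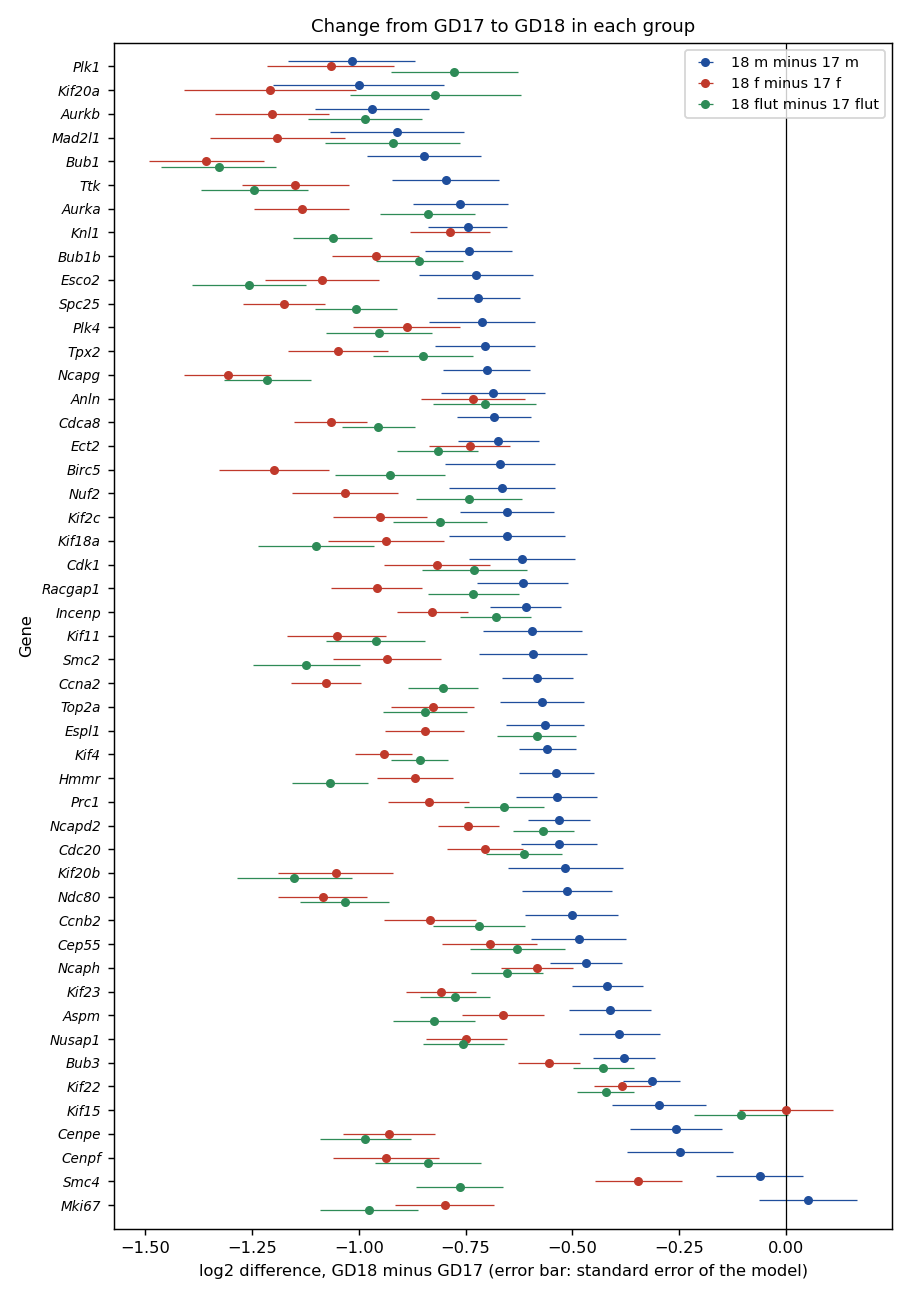
Change of each of 49 genes from GD17 to GD18 (horizontal axis, log2 difference with the standard error of the model) in males (blue), females (red) and flutamide-treated males (green). Nearly all points lie left of 0, the blue points lie to the right of the red and green ones for most genes, and Mki67 and Smc4 in males lie next to 0.

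The checkpoint kinase gene Bub1 fell by 1.36 in females, by 1.33 in flutamide-treated males and by 0.85 in males. Its pools gave 9.96, 9.86 and 9.80 in 17 m, 9.12, 9.20 and 8.75 in 18 m, 9.89, 9.79 and 9.80 in 17 f and 8.33, 8.79 and 8.28 in 18 f, so that the days were far apart in both sexes. The condensin subunit gene Ncapg fell by 1.31, 1.21 and 0.70 in the same order, and Plk1 fell by 1.07, 0.78 and 1.02. Through their brightest probe sets, Bub3 and Kif22, which are among the brightest genes of the group, fell least among the genes called in all 3 groups. Those changes were -0.31 to -0.56. The other Kif22 probe sets (mean log2 8.08 and 9.56) changed by -0.76 to -1.24, and the other Bub3 probe sets by -0.29 to -0.84. In males 5 genes were not called. Mki67 changed by 0.05 (SE 0.12, adjusted p = 0.81) and Smc4 by -0.06 (SE 0.10, adjusted p = 0.73), and Cenpf, Cenpe and Kif15 by -0.25, -0.26 and -0.30. Mki67 gave 11.08, 11.08 and 10.91 in 17 m and 10.90, 11.03 and 11.29 in 18 m, and the days overlapped. In females the same gene changed by -0.80 (adjusted p = 4.1e-05) and in flutamide-treated males by -0.98 (adjusted p = 2e-05). Kif15 alone was not called in females or in flutamide-treated males.

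Whether the change from GD17 to GD18 differed between males and females was tested as an interaction, the difference 18 m minus 18 f less the difference 17 m minus 17 f. It was called in 7 of 49 genes, all positive (3.89% of all genes called positive and 0.885% negative), and was above 0 in 48, with a median of 0.30 over the group and 0.06 over all genes. Markers of other tissues had the same sign, with all 11 liver genes (median 3.99), all 10 exocrine pancreas genes (median 1.65) and all 7 erythroid genes (median 0.70, 1 called) above 0, and their part in the interaction was not tested. The mitosis genes called were Mki67 (0.85), Cenpe (0.67), Cenpf (0.69), Ncapg (0.61), Ndc80 (0.57), Ccna2 (0.49) and Kif4 (0.38). Another Ccna2 probe set of similar level gave 0.28 and was not called. The count was 21 without 18 m 3, 11 without 18 f 2, 3 without 18 f 1 and 1 without the 3 pools high in pancreas genes. The matching interaction of flutamide and day was called in 2 genes, Mki67 (1.03, adjusted p = 0.013) and Smc4 (0.70, adjusted p = 0.048), against 0.0824% of all genes called positive and 0.0879% negative, and 46 genes were above 0, with a median of 0.22 over the group and 0.05 over all. With any 1 pool of 17 m, 17 flut or 18 flut left out, or 18 m 2 or 18 m 3, 1 gene was called, and without 18 m 1 it was 3.

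Other genes of the cell cycle were counted from lists of named genes, each list separate from the 49. The median difference 18 m minus 18 f was 0.26 over 30 further kinetochore and centromere genes, 0.06 over 14 genes of cohesin and its regulators, 0.18 over 18 of the anaphase-promoting complex, 0.20 over 36 of mitotic entry and the spindle and 0.35 over 26 of DNA replication. Against 18 flut the medians were 0.24, 0.18, 0.15, 0.21 and 0.23. Over all genes the medians were 0.02 and -0.0027, with 1.43% called higher and 0.242% lower in 18 m than in 18 f, and 3.67% higher and 0.555% lower than in 18 flut. Of the 30 kinetochore and centromere genes, 5 were called higher in 18 m than in 18 f, and 9 higher and 1 lower than in 18 flut. Cenpk, a subunit of the inner kinetochore, differed by 0.64 and 0.92, and Sgo2a, a protector of centromeric cohesion, by 0.83 against 18 flut. Of the 14 cohesin genes, 3 were called higher in 18 m than in 18 f, namely Esco1, Smc3 and Nipbl, and 5 higher and 1 lower than in 18 flut. Smc3, a ring subunit of cohesin, differed by 0.42 and 0.75, and Nipbl, the cohesin loader, by 0.37 and 0.78. Of these 14 genes, 6 were called lower and 4 higher in 18 m than in 17 m, unlike the nearly uniform fall of the mitosis genes. Of the 18 genes of the anaphase-promoting complex and its regulators, 1 and 4 were called higher at GD18 in males than in females and in flutamide-treated males, with the complex's inhibitor Fbxo5 (0.40 and 0.55) in both. Of the 36 genes of mitotic entry and the spindle, 4 and 7 were called higher, Shcbp1 (0.53 and 0.72) among them.

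Of the 26 DNA replication genes, 5 were called higher in 18 m than in 18 f and 4 higher than in 18 flut. Gins1, of the replicative helicase, differed by 0.68 (adjusted p = 0.0068) against 18 f, and Lig1, the replication ligase, by 0.36 and 0.35. All 26 were called lower at GD18 than at GD17 in males and in females, and 25 in flutamide-treated males, with medians of -0.79, -1.16 and -0.90. Of 9 G1 cyclins and kinases, 7 fell from GD17 to GD18 in males, and 8 fell and 1 rose in females. At GD18 the cyclin E2 gene Ccne2 was called higher in 18 m than in 18 f and 18 flut (0.45 and 0.57). Of 12 cell cycle inhibitors, 4 rose and 2 fell in males and 5 rose and 3 fell in females over the same interval, where 17.7% and 17.2% of all genes rose and 12.4% and 22.5% fell. Of 19 genes of the E2F, MYB and FOXM1 regulators, 11 fell and 1 rose in males and 15 fell and 1 rose in females, and 1 was called higher in 18 m in each comparison of GD18, the CCAAT-binding subunit gene Nfyb (0.37 and 0.40).

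The array genes outside the group whose levels most resembled the group's score over the 18 pools were Hells (r = 0.9952), Ncapg2, Pola1, Atad2, Shcbp1, Cdc7, Chek1, Haus6, Spdl1 and Ddias (r = 0.988). The 18 pools share the fall from GD17 to GD18, and r is given as a description with no p. Hells, a chromatin remodeller, differed by 0.69 between 18 m and 18 f and by 0.82 between 18 m and 18 flut.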

How the data were processed

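Lung RNA pools were hybridised to Affymetrix MOE430 2.0 arrays. The authors deposited 1 intensity per probe set and array, summarised by RMA per their methods, on a linear scale, and the log2 of the deposited intensity was taken here; the scanner files were not used here. Of 45101 probe sets, 64 control probe sets were left out and 45037 tested. A single symbol was given to 34945 of them (18193 genes), several to 932 and none to 9160. The table had 18 arrays and 6 groups of 3, and 0 columns of other samples were used. The number of arrays limits the precision.

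A group-means model was fitted over all 18 arrays with limma 3.58.1 in R 4.3.3 (12 residual degrees of freedom), and p-values were adjusted by Benjamini-Hochberg within each of 11 comparisons over all probe sets. Genes were read through the probe set with the highest mean. Tables, promoter searches and plots were made with Python 3.11.15, pandas 2.3.3, scipy 1.17.1 and matplotlib 3.10.9. Gene coordinates and promoters are those of RefSeq on GRCm38.p6. The mitosis genes, the other gene lists and the tests were chosen with earlier results of these data known. Genes were named by role, by their calls in the comparisons of GD17 and GD18 males and as the marker genes Mki67, Kif20b and Cenpe. Single genes of the other lists were taken from those with the smallest limma p in a comparison. Alternatives were array centring, repeated quantile normalization, cyclic loess, an intensity trend, array weights, a filter at the median level, the mean of all probe sets of a gene, adjustment over 1 probe set per gene, fits of only the groups compared, a replicate block, an indicator for the pools high in pancreas genes, and fits without single or doubtful pools. On simulated data, with 45037 probe sets and changes added to the comparison 18 m minus 18 f, log2 changes of 0.5, 1 and 2 were called in 47 of 67, 64 of 67 and 65 of 66 probe sets.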

Additional observations from a re-analysis of the deposited data

Results flagged for a closer look

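The change from GD17 to GD18 differed between males and females, by the interaction test of limma, in 7 of the mitosis genes. The interaction was 0.85 for Mki67 (SE 0.16, adjusted p = 0.0045), 0.67 for Cenpe (adjusted p = 0.014), 0.69 for Cenpf (adjusted p = 0.027), 0.61 for Ncapg (adjusted p = 0.018), 0.57 for Ndc80 (adjusted p = 0.029), 0.49 for Ccna2 (adjusted p = 0.018) and 0.38 for Kif4 (adjusted p = 0.021). All were positive, that is, the change from GD17 to GD18 was higher in males than in females. Another Ccna2 probe set of similar level gave 0.28 and was not called (adjusted p = 0.49). Between untreated and flutamide-treated males the change differed in Mki67, by 1.03 (SE 0.16, adjusted p = 0.013), and in Smc4, by 0.70 (SE 0.14, adjusted p = 0.048). Both tests use the same male pools. Leaving out 1 pool at a time gave 3 to 21 called genes for sex by day and 1 to 3 for flutamide by day. The listed liver, exocrine pancreas and erythroid genes were also all positive for sex by day, and their part in it was not tested.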

How the results depend on the processing

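Mki67, Cenpe and Kif20b kept their sign in each same-day comparison with males in all settings run. Other single genes were not followed through the alternatives. Medians near 0 crossed it, between -0.02 and 0.03 for 17 m vs. 17 f and between -0.12 and 0.03 for 18 flut vs. 18 f. The falls from GD17 to GD18 held in all settings (39 to 48 genes called), with a median of -0.81 in females over the mean of all probe sets of a gene. Counts of called mitosis genes moved most between groups of the same day, and the cause was not tested. With array weights they were 5 (17 m vs. 17 f), 42 (18 m vs. 18 f, median 0.41), 40 (18 m vs. 18 flut), 8 (17 flut vs. 17 f), 2 (18 flut vs. 18 f), 22 (sex by day) and 12 (flutamide by day). In fits of only the groups compared they were 0, 2, 9, 7, 1, 4 and 0 in that order, with fewer residual degrees of freedom. There Mki67 in 18 m vs. 18 f was no longer called (limma adjusted p = 0.054). Without the 3 pools high in pancreas genes they were 0 for 17 m vs. 17 f and 17 flut vs. 17 f, 10 for 18 m vs. 18 f and 1 for each interaction. With an indicator for these pools they were 0, 0, 2 for 18 flut vs. 18 f and 1 for flutamide by day. Without 18 m 3 and 18 flut 3 they were 33 for 18 m vs. 18 f (median 0.42), 29 for 18 m vs. 18 flut (median 0.44), 4 for 17 flut vs. 17 f, 19 for sex by day (median 0.41) and 1 for flutamide by day. For 17 m vs. 17 f, 1 was called after centring, repeated quantile normalization or the mean of all probe sets and 0 with adjustment over 1 probe set per gene. For 17 flut vs. 17 f, 1 was called after repeated quantile normalization or cyclic loess and 4 with the mean of all probe sets. For flutamide by day, 4 were called among the brighter probe sets and 1 with adjustment over 1 probe set per gene.

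Leaving out each pool in turn gave 5 to 35 called genes (medians 0.22 to 0.42) for 18 m vs. 18 f, 17 to 34 (0.25 to 0.42) for 18 m vs. 18 flut, 0 to 4 for 17 m vs. 17 f, 3 to 6 for 17 m vs. 17 flut, 0 to 1 for 17 flut vs. 17 f, 3 to 21 for sex by day (0.23 to 0.41) and 1 to 3 for flutamide by day (0.14 to 0.32). Same-numbered pools did not steadily deviate together (r between -0.32 and 0.37, with no pair of groups above 0.1 for all 3 numbers). The main fit did not pair them. These r are taken over all probe sets, markers of other tissues included, so they cannot show whether pools shared litters. With the replicate block 1 gene was called in 17 m vs. 17 f, 1 in 17 flut vs. 17 f and 1 in flutamide by day, 5 in 17 m vs. 17 flut, 17 in 18 m vs. 18 f and 21 in 18 m vs. 18 flut. With 3 pools per group, and signals of whole lungs, small differences may have been missed.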

Other observations

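The 10 genes most like the group's score were picked by their r with a score that fell from GD17 to GD18. A fall in these genes was therefore built into the choice. Their changes in females were -1.63 to -0.96, against a median of -0.93 over the mitosis genes. Hells changed by -1.63 in females and by -1.05 in males, and Chek1, a checkpoint kinase of DNA replication, by -1.57 and -1.07. Pola1, a subunit of the polymerase that primes replication, changed by -1.26 and -0.92. Haus6, a subunit of the augmin complex that adds microtubules inside the spindle, differed by 0.51 between 18 m and 18 f (adjusted p = 0.019), by 0.72 between 18 m and 18 flut (adjusted p = 0.00048) and by 0.39 between 17 m and 17 flut (adjusted p = 0.042).

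Of 14 cohesin genes, 2 were called higher in 17 m than in 17 flut and 12 were not called. Nipbl differed by 0.44 between 17 m and 17 flut (adjusted p = 0.017) and Esco1, a cohesin acetyltransferase like Esco2, by 0.33 (adjusted p = 0.029), while Rad21, a ring subunit of cohesin, differed by -0.17 (adjusted p = 0.16). At GD18 Esco1 differed by 0.38 between 18 m and 18 f and by 0.79 between 18 m and 18 flut. Btg1, an antiproliferative gene, was the member of the inhibitor list called lower in 18 m than in 18 flut (-0.30).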
